A study of Homo sapiens with 18 samples.

Results

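The interferon regulatory factors examined here were 8 genes, IRF1, IRF2, IRF3, IRF4, IRF5, IRF7, IRF8 and IRF9, taken by their GENCODE 29 symbols out of the 57500 genes counted in every library. All 8 had counts in all 18 libraries. THP-1 cells, which derive from a human monocytic leukaemia, gave the RNA and were grown as 3 stable lines under puromycin. The lines carried a lentiviral short hairpin RNA without a target (shNT), one against NR4A2 (shNR4A2) or one against NR4A3 (shNR4A3), nuclear receptors of the NR4A family. Each line was held for 2 h in buffered medium and then left untreated (control) or given LPS, a cell wall component of Gram-negative bacteria, at 2.5 μg/ml for a further 2 h, so that the 6 groups were the 3 lines in the 2 states with 3 libraries each. Every group therefore carried a hairpin and came from a drug-selected line, each knockdown was 1 line, and a line's own history cannot be told apart from its hairpin. Total counts ran from 16171161 to 23929138 per library.

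IRF proteins share a DNA-binding domain that reads GAAA repeats, the core of the interferon-stimulated response element (ISRE), and they sit at several steps of the interferon pathway. IRF3 and IRF7 are phosphorylated by the kinases TBK1 and IKBKE behind Toll-like and cytosolic receptors and switch on the type I interferon genes. Secreted interferon then acts through its receptor on ISGF3, the complex that holds IRF9 and binds the ISRE of antiviral genes. IRF1 is an activator induced by interferon-gamma and by inflammatory signals, and IRF2 competes with it for the same sites. IRF5 works downstream of MYD88 in the induction of inflammatory cytokines. IRF8 directs monocyte and dendritic cell development with the partner factor SPI1 (PU.1), and IRF4, its closest relative, is known from B cells, T cells and dendritic cells. LPS, through TLR4, feeds both the NF-kappaB and the TBK1 branch, and the comparisons asked how the family's transcripts stood with LPS and with each NR4A receptor reduced.

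Of the members with a start-site window, IRF1 was the only one with a match to any of the 4 searched motifs outside the deposited exons. Its promoter is printed for that reason. RefSeq start-site windows (build GRCh38.p14, 250 bases before to 50 bases after the start, 300 in all) were at hand for 5 members, IRF1, IRF4, IRF5, IRF8 and IRF9, with 9 start sites between them. The members without a window were IRF2, IRF3 and IRF7, which were not searched. Deposited exons filled 262 of the 300 bases for IRF9 and 191 and 300 for IRF8, so little or nothing outside exons was searched there. The 225 bases before the first deposited exon of IRF1 lie at chr5:132490799-132491023 on the minus strand of GRCh38, the build of the deposited positions. Capitals mark the motif matches.
IRF1 promoter: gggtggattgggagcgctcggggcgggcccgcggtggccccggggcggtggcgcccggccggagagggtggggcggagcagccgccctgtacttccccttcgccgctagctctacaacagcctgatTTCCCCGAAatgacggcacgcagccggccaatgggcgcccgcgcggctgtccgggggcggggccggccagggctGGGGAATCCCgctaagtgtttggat
The first capitals are a STAT-binding GAS element (TTCNNNGAA, both strands searched), TTCCCCGAA, from -124 to -116 of the start site. The second are an NF-kappaB consensus site, GGGGAATCCC, from -50 to -41, which matched on both strands. A GAS match stood in 7.66% of all 35116 RefSeq windows of this length and an NF-kappaB match in 11.3%, so neither is rare. IRF9 had a GAS match, TTCTGGGAA, from -63 to -55 of its start, inside a deposited exon. The ISRE core (GAAA, any 2 bases, then GAAA, in 3.57% of windows) and the NR4A site NBRE (AAAGGTCA, in 1.22%) had no match in the windows of the 5 members, and IRF4, IRF5 and IRF8 held none of the 4 motifs, which says only that these letters are not in these windows.

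The members' levels per length are given as TPM (the count over the deposited length of the merged exons, scaled so that all libraries have 1 sum). IRF8 (ENSG00000140968, chromosome 16, 85898803 to 85922609) was the most abundant member in every library. In shNT control cells its TPM was 311, 320 and 275, a mean of 302 ± 23.4 (SD, n = 3), and it made up 53.8% of the summed TPM of the 8 genes. Over all 18 libraries its lowest TPM was 194, above the highest value of any other member. IRF5 (chromosome 7, 128937612 to 128950035) followed in shNT control cells with a mean TPM of 94.9 ± 2.83, then IRF3 (chromosome 19, 49659569 to 49665875) with 77.5 ± 6.04 and IRF7 (chromosome 11, 612553 to 615999) with 41.2 ± 5.74. IRF1 (chromosome 5, 132481609 to 132490798) with 21.1 ± 2.6 and IRF2 (chromosome 4, 184387713 to 184474580) with 20.2 ± 1.81 overlapped. IRF9 (chromosome 14, 24161053 to 24166565) had 4.4 ± 0.146. IRF4 (chromosome 6, 391739 to 411447) was lowest with 0.144 ± 0.117, which rests on 9, 1 and 4 counts. Apart from IRF1 and IRF2, neighbours in this order did not overlap. The same order held in shNR4A2 and shNR4A3 control cells.

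The middle of this order differed in the cells given LPS. In shNT cells with LPS, IRF3 had a TPM of 61.9 ± 3.56, overlapping IRF7 at 58.4 ± 5.71, and IRF5 lay below both at 42.1 ± 5.71. In shNR4A3 cells with LPS, IRF7 stood at 92 ± 9.55, clear of IRF3 at 53.6 ± 7.83, which overlapped IRF5 at 38.3 ± 8.83. In shNR4A2 cells with LPS, IRF7 at 71.7 ± 16.1, IRF3 at 61.1 ± 10.5, IRF5 at 45.4 ± 13.7 and IRF1 at 30.8 ± 3.36 each overlapped the next. IRF8 at the top, and IRF2, IRF9 and IRF4 at the bottom, kept their ranks in all 6 groups on this measure of length.

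**Figure D1:**
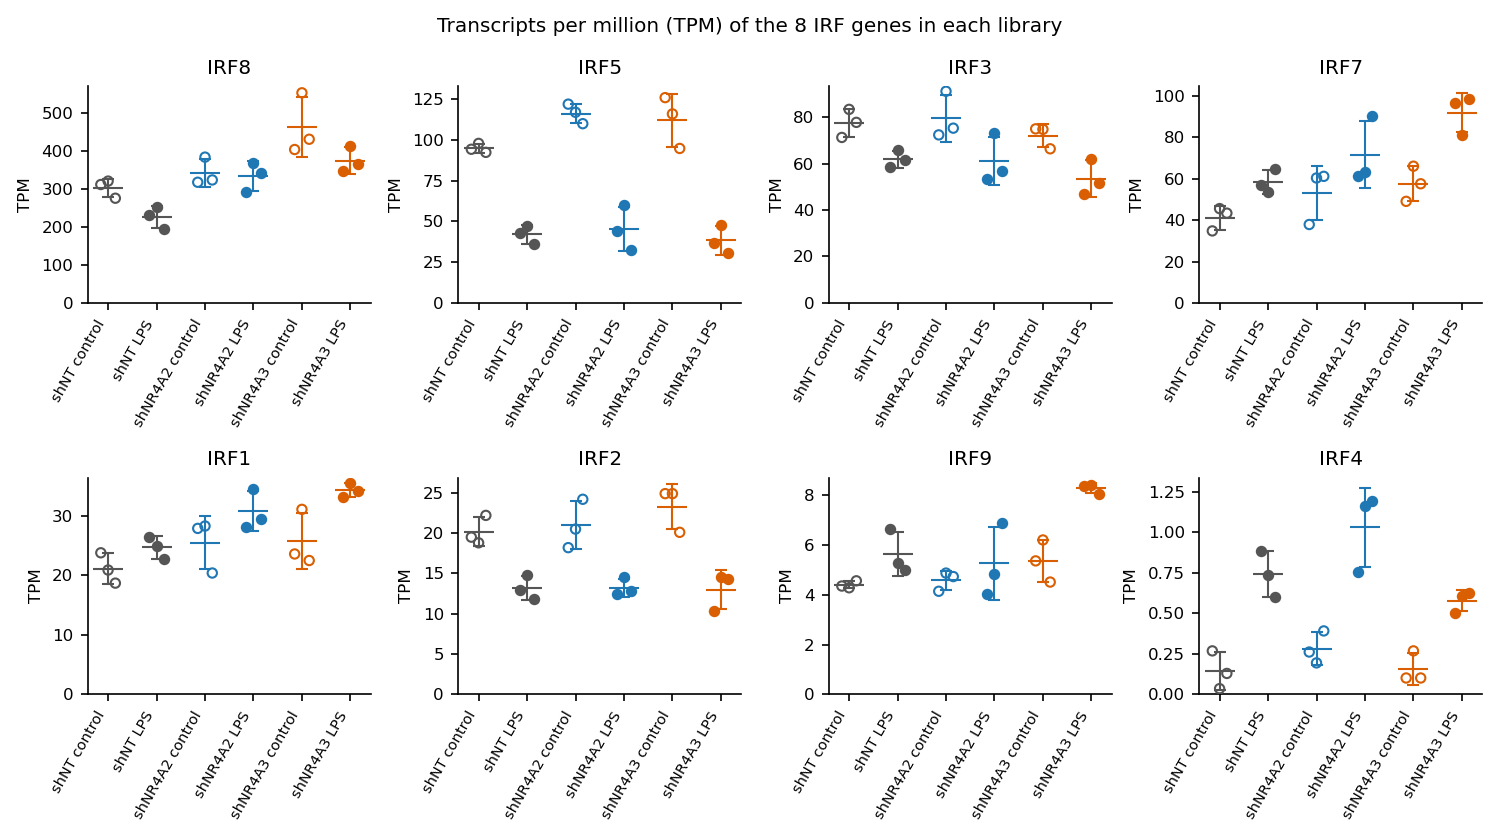
Level of each IRF gene in TPM (vertical axes from 0, each with its own scale) in the 18 libraries. Open circles are control libraries, filled circles are LPS libraries, and bars are the mean ± SD of 3. IRF8 lies at or above 194 TPM throughout, IRF5 separates by LPS in every line, and IRF4 does not exceed 1.19 TPM.

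The levels depend on how exons are measured, and the order of some neighbours with them. The deposited length of IRF1, 7799 bases, is 2.18 times that of its longest principal transcript in GENCODE 29 (3579 bases), the same ratio as for IRF3. The ratio was 1.70 for IRF8, whose shNT control level became 514 TPM, and 1.57 for IRF5. For IRF9 it was 2.06, and 1838 of its 3794 deposited bases (48.4%) also belong to AL136295.5, a protein-coding gene on the same strand with 14 to 49 counts per library. IRF3 shares 734 bases (19.3%) with BCL2L12 on the opposite strand, which had 609 to 1191 counts, and IRF1 shares 321 bases (4.12%) with ENSG00000277192, which had 0 counts in every library. How reads in shared bases and on either strand were counted is not given in the sources used here. With the length of the longest principal transcript, or without the shared bases, IRF3 at 169 or 96.1 TPM stood above IRF5 at 149 or 94.9 TPM in shNT control cells, so the order of that pair is not settled. IRF3 likewise passed IRF7 in shNR4A2 cells with LPS (133 against 91.9 TPM with the length of the longest principal transcript), and in shNR4A3 cells with LPS that length put them at 117 and 118 TPM and IRF1, at 74.8 TPM, above IRF5, at 60.1 TPM. Without the shared bases IRF9 stood at 16 TPM in shNR4A3 cells with LPS, above IRF2 at 13 TPM. Comparisons of 1 gene between groups do not use the length.

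The labelled cell type was checked on marker genes. All 12 monocytic markers had a mean of at least 1 TPM, led by SPI1 with 776, and their summed TPM ran from 2133 to 4982. Of 6 B cell markers, which bear on IRF4 and IRF8, the sum ran from 5.98 to 18.6 TPM with PAX5 the highest at 3.5, and MS4A1 was at 0 in all shNT libraries. PAX5 was called lower in shNR4A3 than in shNT cells in both states. The dendritic marker CD1C was called higher in shNR4A2 cells with LPS (12, 12 and 19 counts against 4, 6 and 1, log2 fold change 2.09, adjusted p = 0.0448). CD1C passed the count filter there only through the shNR4A2 libraries, where it was higher. The endothelial and myeloid marker PECAM1 was higher in shNR4A2 cells in both states (0.63 and 0.70). With LPS itself the B cell marker CD79A was called higher in shNT cells (1.05, adjusted p = 0.0456), as was the dendritic marker IL3RA (0.32). The B cell marker BLNK was called lower in shNR4A3 cells (-1.49). Of the monocytic markers, SPI1 was called higher and CEBPA and CD33 lower with LPS in every line (0.61, -2.12 and -0.44 in shNT cells). The part of these markers in the results below was not tested. T and NK cell markers summed to 33.3 to 58.9 TPM, 45 of it NKG7 on average, dendritic cell markers to 98 to 122 (IL3RA 75.2), platelet and erythroid markers to 0 to 1.12, and epithelial and stromal markers to 115 to 291 (PECAM1 194).

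LPS raised IRF4, IRF7 and IRF1 and lowered IRF5 in all 3 lines, and left IRF3 and IRF8 without a call in any of them. Among these, IRF4 passed the count filter through its LPS libraries, as set out below. IRF5 showed the largest fall of the family, to less than its control level in every LPS library. In shNT cells its TPM was 94.3, 97.9 and 92.4 without LPS and 43.1, 47.3 and 36 with LPS. In shNR4A2 cells it was 122, 117 and 110 against 44, 59.8 and 32.5, and in shNR4A3 cells 126, 116 and 94.8 against 36.5, 47.9 and 30.5. In each line the control and LPS values were apart. The log2 fold change by edgeR's quasi-likelihood test was -0.96 in shNT cells (standard error, SE, 0.0984, adjusted p = 6.69e-06), -1.10 in shNR4A2 cells (SE 0.165, adjusted p = 0.000451) and -1.34 in shNR4A3 cells (SE 0.151, adjusted p = 6.92e-05).

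With LPS the TPM scale itself shifted. The median log2 ratio of TPM over all genes with a mean of at least 1 TPM was -0.23 in shNT, -0.28 in shNR4A2 and -0.23 in shNR4A3 cells, while the edgeR fold changes, scaled by TMM, had medians of -0.01, -0.02 and -0.01. IRF3 illustrates the difference. Its TPM in shNT cells was 71.3, 83.4 and 77.8 without and 58.6, 65.7 and 61.4 with LPS, without overlap, yet its edgeR log2 fold change was -0.11 (95% confidence interval -0.31 to 0.09, adjusted p = 0.455). In shNR4A2 cells it was -0.12 (-0.42 to 0.17, adjusted p = 0.578) and in shNR4A3 cells -0.21 (-0.43 to 0.02, adjusted p = 0.158).

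IRF4 had the largest rise in log2 units from the lowest level. Its counts in shNT cells were 9, 1 and 4 without LPS and 30, 24 and 22 with LPS, or 0.268, 0.0353 and 0.129 against 0.886, 0.733 and 0.6 TPM. The shNR4A2 libraries had 10, 6 and 14 counts against 22, 37 and 41, and the shNR4A3 libraries 3, 7 and 3 against 16, 16 and 22. LPS libraries all exceeded the controls of their line, but even the highest value was 1.19 TPM. The log2 fold change was 2.49 (SE 0.473, adjusted p = 0.00147) in shNT, 2.12 (SE 0.355, adjusted p = 0.00101) in shNR4A2 and 2.11 (SE 0.43, adjusted p = 0.0036) in shNR4A3 cells. Without shNT control replicate 1 the shNT value was 3.30. In comparisons of control libraries alone IRF4 was too low to be tested, so it passed the count filter here through its LPS libraries. Without a filter on low counts it was called higher with LPS in each line (2.50, 2.08 and 2.11 in the same order).

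IRF7, the interferon-inducible partner of IRF3, rose in each line. Its TPM in shNT cells was 34.8, 45.6 and 43.4 without LPS and 57.2, 53.4 and 64.6 with LPS. In shNR4A3 cells it was 49.1, 66.1 and 57.6 against 96.5, 81 and 98.4. In shNR4A2 cells it was 37.9, 60.4 and 61.2 against 61.6, 63.2 and 90.3, groups that parted by less than 1 TPM. The log2 fold change was 0.73 (SE 0.126, adjusted p = 0.000757), 0.91 (SE 0.126, adjusted p = 0.000289) and 0.71 (SE 0.204, adjusted p = 0.0286) in these lines in turn. The call in shNR4A2 cells was lost without shNR4A2 control replicate 1 or 2 or LPS replicate 3, with an adjusted p of 0.0923, 0.0531 and 0.0904.

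IRF1 rose less. Its log2 fold change was 0.44 (SE 0.113, adjusted p = 0.0107) in shNT cells, where the TPM went from 23.8, 20.9 and 18.7 to 26.5, 25 and 22.7 and the groups overlapped. It was 0.53 (SE 0.146, adjusted p = 0.0232) in shNR4A2 cells, where they overlapped too, and 0.65 (SE 0.109, adjusted p = 0.00105) in shNR4A3 cells, where 33.2, 35.6 and 34.2 TPM with LPS lay above 23.6, 31.1 and 22.5 without. Without shNR4A2 control replicate 3 the shNR4A2 call was lost (0.38, adjusted p = 0.0995). IRF2, the antagonist of IRF1, went the other way, from 19.5, 18.8 and 22.2 TPM to 13, 14.8 and 11.8 in shNT cells, with every LPS library below every control library in all 3 lines. It fell in shNT cells (log2 fold change -0.40, SE 0.119, adjusted p = 0.0256) and in shNR4A3 cells (-0.61, SE 0.15, adjusted p = 0.0103). In shNR4A2 cells its value was -0.40 (SE 0.15, adjusted p = 0.0865), which passed once replicates were blocked by their number (adjusted p = 0.0349, where 16.3% of all genes were called lower). It also passed with all 18 libraries in 1 fit (-0.39, adjusted p = 0.0299).

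IRF9, the DNA-binding part of ISGF3, rose in shNT cells (log2 fold change 0.58, SE 0.171, adjusted p = 0.0236) and in shNR4A3 cells (0.86, SE 0.161, adjusted p = 0.00213). Its TPM in shNR4A3 cells was 5.36, 6.2 and 4.51 without LPS and a close 8.38, 8.39 and 8.03 with it. In shNR4A2 cells it was 4.14, 4.87 and 4.73 against 4.05, 4.83 and 6.89, with 1 LPS library standing above, and the value of 0.48 did not pass (SE 0.231, adjusted p = 0.18). The calls in shNT cells of IRF2 and IRF9 were the weak ones. IRF2 lost its call without shNT control replicate 1 or 3 or LPS replicate 1 or 3 (adjusted p between 0.0551 and 0.102), IRF9 without any 1 of the control replicates or LPS replicate 1 (between 0.0591 and 0.103), and DESeq2 called neither (adjusted p = 0.058 and 0.0523).

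IRF8 was not called with LPS in any line. Its TPM in shNT cells was 311, 320 and 275 without and 231, 252 and 194 with LPS, without overlap. The edgeR log2 fold change was -0.21 (95% confidence interval -0.43 to 0.01, adjusted p = 0.154) there, 0.23 (-0.04 to 0.50, adjusted p = 0.227) in shNR4A2 cells and -0.07 (-0.29 to 0.15, adjusted p = 0.645) in shNR4A3 cells. Without shNT control replicate 3 the shNT value passed (-0.30, adjusted p = 0.0438).

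In all, 4 of 8 members were called higher and 2 lower with LPS in shNT cells, beside 11.6% and 13.3% of all 15711 genes tested. In shNR4A2 cells 3 were called higher (9.23% of 15772 genes) and 1 lower (10.1%), and in shNR4A3 cells 4 higher (13.1% of 15342 genes) and 2 lower (15.0%). Known targets showed that the cells answered LPS in each line, with the NR4A genes among them: NR4A3 had a log2 fold change of 5.97 and NR4A2 one of 4.29 in shNT cells (adjusted p = 1.32e-12 and 8.02e-11).

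**Figure D2:**
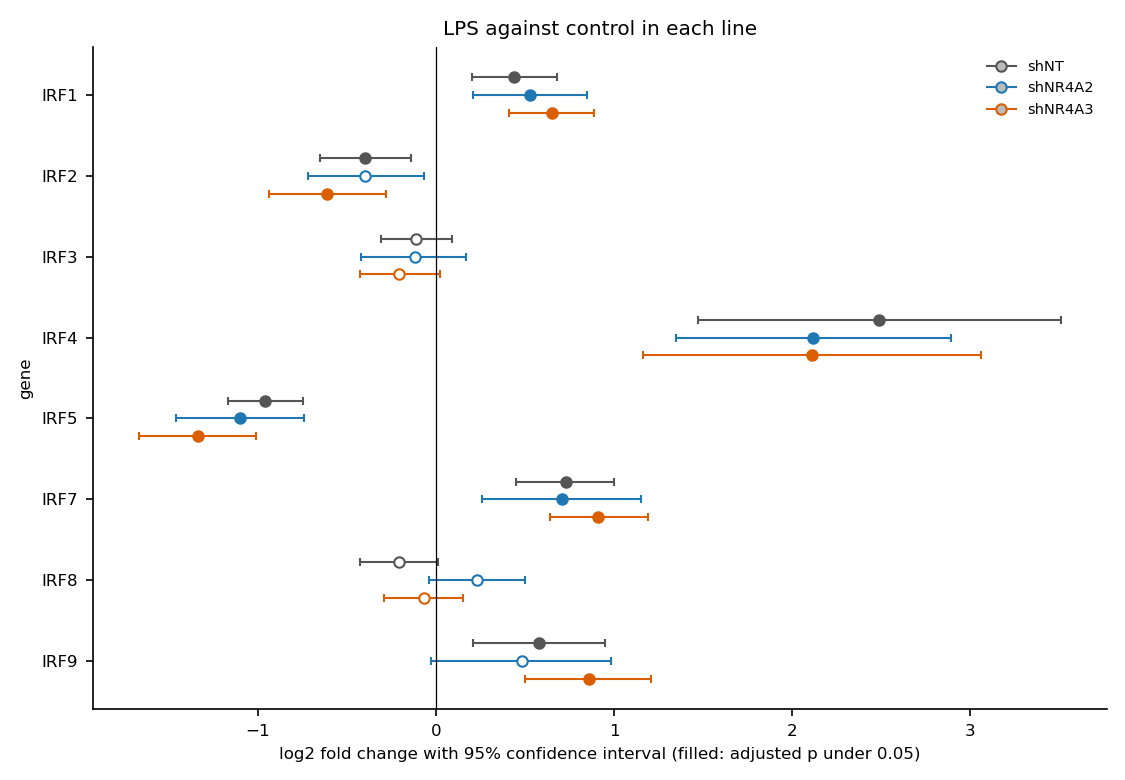
Log2 fold change with LPS (horizontal axis) of the 8 IRF genes (vertical axis) in shNT, shNR4A2 and shNR4A3 cells, by edgeR, with 95% confidence intervals. Filled points passed an adjusted p of 0.05. IRF4 lies above 2 and IRF5 at or below -0.96 in all 3 lines, while the intervals of IRF3 and IRF8 include 0.

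Whether LPS acted differently on a member in a knockdown line was tested by the interaction of line and LPS. No member was called, nor was any gene by edgeR (0% of 16674, 16428 and 16447 genes for shNR4A2 against shNT, shNR4A3 against shNT and shNR4A2 against shNR4A3), though 365, 824 and 396 genes had an unadjusted p under 0.05. DESeq2 called 2, 10 and 1 genes, none of them an IRF gene. Leaving out 1 library gave edgeR calls in 2 fits, 8 genes for shNR4A2 against shNT without shNR4A2 LPS replicate 2 and 44 for shNR4A3 against shNT without shNR4A3 LPS replicate 2, with 0 IRF genes among them. The smallest unadjusted p of a member was that of IRF8, whose LPS response in shNR4A2 cells exceeded that in shNT cells by a log2 of 0.45 (SE 0.163, 95% confidence interval 0.10 to 0.79, adjusted p = 1 by edgeR). For IRF5 the response of shNR4A3 cells differed from that of shNT cells by -0.38 (95% confidence interval -0.79 to 0.03). With 3 libraries a group, differences of this size between lines were not called.

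Each hairpin's target was lower in its own line. NR4A2 in shNR4A2 cells was 47% below shNT cells without LPS and 66.2% with LPS, and NR4A3 in shNR4A3 cells was 83.1% and 45.5% below. Both knockdown lines were compared with the same shNT libraries, so the values of the 2 lines below share those controls. In these comparisons every member that was called was higher in the knockdown line.

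IRF8 had the largest called fold change in each of the 3 comparisons in which it was called. Without LPS its TPM was 403, 552 and 430 in shNR4A3 cells, each above the shNT values of 311, 320 and 275, and the log2 fold change was 0.65 (SE 0.11, adjusted p = 0.00267). With LPS the shNR4A3 libraries had 347, 413 and 364 against 231, 252 and 194, a log2 fold change of 0.79 (SE 0.09, adjusted p = 0.00119). In shNR4A2 cells with LPS, 291, 368 and 341 TPM lay above the same shNT libraries, with a log2 fold change of 0.62 (SE 0.102, adjusted p = 0.00885). Without LPS, 317, 383 and 323 TPM overlapped the shNT values and the log2 fold change was 0.18 (95% confidence interval -0.08 to 0.43, adjusted p = 0.441). The 3 calls of IRF8 held with any 1 library left out, with an adjusted p of at most 0.0435.

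Some monocytic markers were called higher in the knockdown lines too, also in shNR4A2 control cells, where IRF8 was not called. Their summed TPM was 3637, 3370 and 3016 in shNT control cells, 4535, 4218 and 3906 in shNR4A2 and 4982, 4381 and 4285 in shNR4A3 control cells, and 2713, 2295 and 2133, then 3830, 3224 and 3059, then 3728, 3217 and 3357 in the same lines with LPS. Of the 12 markers 6 were called higher in shNR4A3 than in shNT control cells and 5 with LPS, among them LYZ, CSF1R and SPI1, with 5 and 4 in shNR4A2 cells and none lower in any of the 4 comparisons. Of all genes tested, 3.91% and 3.99% were called higher in shNR4A3 and 3.63% and 4.31% in shNR4A2 cells, without and with LPS. In bulk RNA, more cells of a kind and more RNA per cell cannot be told apart, and the part of these markers in the IRF8 result was not tested.

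IRF7 was higher in shNR4A3 cells than in shNT cells in both states. Without LPS its TPM was 49.1, 66.1 and 57.6 against 34.8, 45.6 and 43.4 (log2 fold change 0.53, SE 0.127, adjusted p = 0.0233), and with LPS 96.5, 81 and 98.4 against 57.2, 53.4 and 64.6 (0.72, SE 0.128, adjusted p = 0.0112). The knockdown and shNT libraries did not overlap in either state. In shNR4A2 cells the values were 0.37 (SE 0.181, adjusted p = 0.275) without and 0.35 (SE 0.169, adjusted p = 0.248) with LPS, and the groups overlapped. With the replicate block, IRF7 was called higher there too (adjusted p = 0.0131 and 0.000663). The shNR4A3 call was lost without LPS when shNT control replicate 1 or 3 or shNR4A3 control replicate 2 or 3 was left out (adjusted p between 0.0621 and 0.0912), and with LPS without shNT LPS replicate 2 (0.63, adjusted p = 0.0572).

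IRF1 passed with LPS in both lines. Its TPM was 33.2, 35.6 and 34.2 in shNR4A3 cells and 28.2, 34.6 and 29.5 in shNR4A2 cells, against 26.5, 25 and 22.7 in shNT cells, with log2 fold changes of 0.53 (SE 0.0814, adjusted p = 0.00517) and 0.37 (SE 0.0915, adjusted p = 0.0438). The shNR4A2 call was lost with any 1 of the 6 libraries left out (adjusted p between 0.0719 and 0.189). IRF9 passed in shNR4A3 cells with LPS, at 8.38, 8.39 and 8.03 TPM against 6.66, 5.27 and 5 (0.61, SE 0.153, adjusted p = 0.0454). That call was lost without shNT LPS replicate 2 or 3 or shNR4A3 LPS replicate 1 or 3 (adjusted p between 0.119 and 0.171).

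The other members were not called against shNT without a replicate block. IRF5 had log2 fold changes of 0.30 (SE 0.0975, adjusted p = 0.0991, and 0.00355 with the block) and 0.29 (SE 0.112, adjusted p = 0.146) in shNR4A2 and shNR4A3 control cells and of 0.16 and -0.09 with LPS. IRF2 lay between 0.04 and 0.26 and IRF3 between -0.16 and 0.04 over the 4 comparisons. IRF4 was too low to be tested without LPS, and with LPS had 0.54 (SE 0.282, adjusted p = 0.29) in shNR4A2 and -0.29 (SE 0.283, adjusted p = 0.578) in shNR4A3 cells.

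By count, shNR4A3 cells had 2 of 7 tested members called higher without LPS (3.91% of all 15322 genes) and 4 of 8 with LPS (3.99% of 15578). In shNR4A2 cells 0 of 7 were called without LPS (3.63% of 15800 genes were called higher), where 1 member, IRF5, had an unadjusted p under 0.05 and DESeq2 called 0 as well, and 2 of 8 were called higher with LPS (4.31% of 15590). Libraries of the same replicate number deviated together in the shNR4A2 comparisons. With that number as a block, IRF1, IRF5 and IRF7 were called higher in shNR4A2 cells without LPS (log2 fold changes 0.27, 0.30 and 0.35, adjusted p = 0.0198, 0.00355 and 0.0131, beside 12.1% of all genes called higher), and IRF7 joined IRF1 and IRF8 with LPS (0.34, adjusted p = 0.000663, beside 15.2%).

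**Figure D3:**
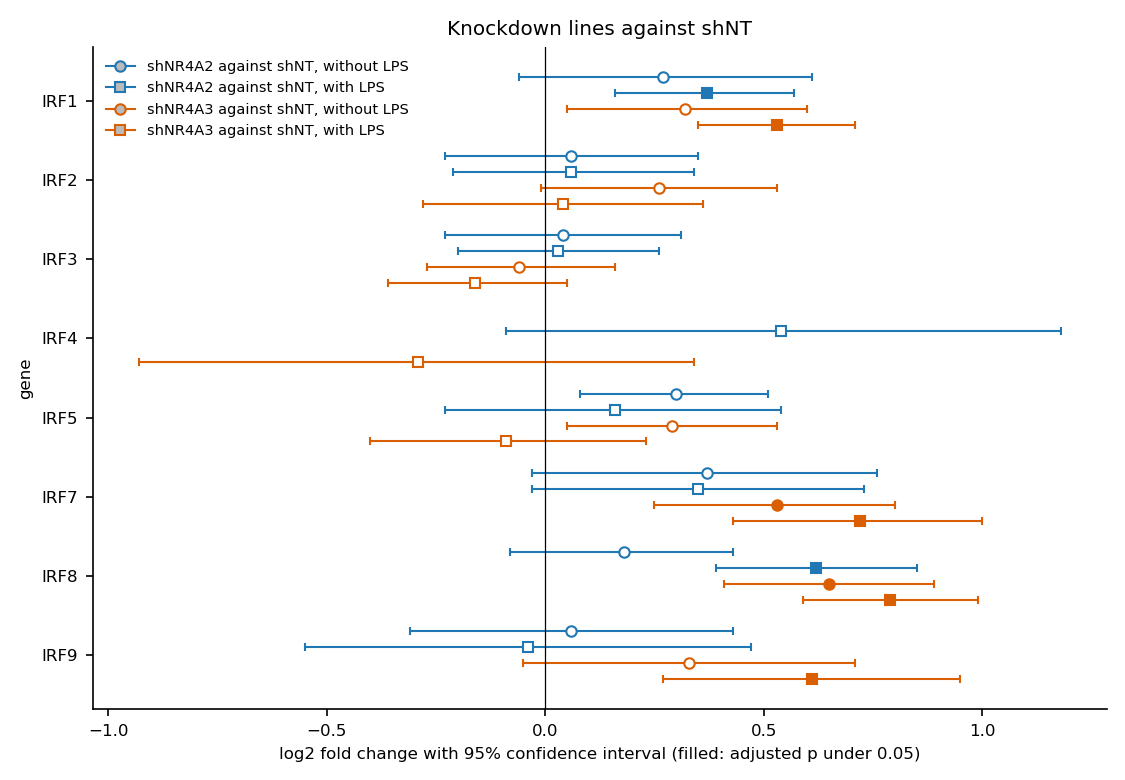
Log2 fold change against shNT (horizontal axis) of the IRF genes (vertical axis) in shNR4A2 (blue) and shNR4A3 (orange) cells without LPS (circles) and with LPS (squares), by edgeR, with 95% confidence intervals. Filled symbols passed an adjusted p of 0.05. IRF8 lies between 0.62 and 0.79 in the 3 comparisons called, and IRF4 was not tested without LPS.

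Set against each other, the knockdown lines gave no call of a member in either state (3.08% of 15584 genes were called without and 2.33% of 15539 with LPS). IRF8 in control cells came nearest, at 317, 383 and 323 TPM in shNR4A2 and 403, 552 and 430 in shNR4A3 cells, without overlap (log2 fold change of shNR4A2 against shNR4A3 -0.48, SE 0.123, adjusted p = 0.0572). It was the 1 member with an unadjusted p under 0.05 there, and DESeq2 called it (-0.48, adjusted p = 0.0119). Without shNR4A2 control replicate 2 it passed (-0.59, adjusted p = 0.019). With LPS, 2 members had an unadjusted p under 0.05, IRF9 lower at 4.05, 4.83 and 6.89 TPM in shNR4A2 cells (-0.65, SE 0.208, adjusted p = 0.151) and IRF4 higher (0.84, SE 0.277, adjusted p = 0.162), and DESeq2 called 0. IRF9 passed without shNR4A2 LPS replicate 3 (-0.92, adjusted p = 0.0452).

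The replicate numbers paired the libraries of these lines. With the number as a block, IRF8 was called lower in shNR4A2 than in shNR4A3 cells without LPS (-0.48, SE 0.0632, adjusted p = 0.00027, beside 11.6% of all genes). With LPS 6 members were called, beside 23.6% of all genes. IRF7 (-0.37, adjusted p = 0.00771), IRF8 (-0.17, adjusted p = 0.0272) and IRF9 (-0.65, adjusted p = 0.0102) were lower in shNR4A2 cells, and IRF3 (0.19, adjusted p = 0.0338), IRF4 (0.83, adjusted p = 0.0448) and IRF5 (0.23, adjusted p = 0.0207) were higher.

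Genes that act upstream of, beside or downstream of the IRF proteins were counted in lists. With LPS, 11.6% of all genes tested were called higher and 13.3% lower in shNT, 9.23% and 10.1% in shNR4A2 and 13.1% and 15.0% in shNR4A3 cells. Against shNT the shares were 3.63% and 2.82% in shNR4A2 cells without LPS, 4.31% and 2.65% with LPS, 3.91% and 3.32% in shNR4A3 cells without LPS and 3.99% and 2.46% with LPS. Each list's count stands beside these shares. Of 15 tested sensors and adaptors, 6 were called higher and 2 lower with LPS in shNT cells, 4 and 1 in shNR4A2 and 8 and 2 in shNR4A3 cells. TLR7, an endosomal RNA sensor, rose from 13, 4 and 6 counts to 245, 293 and 383 in shNT cells (log2 fold change 5.37), the TRIF adaptor TICAM1 by 2.48, the adaptor TRAF3 by 1.68 and the cytosolic sensor IFIH1 by 1.37, and each also rose in both other lines. Of 7 genes for the IRF kinases and their adaptors, 4, 3 and 4 were called higher in the 3 lines and 1 lower in each. TANK, an adaptor of TBK1, had 1.20, 1.31 and 1.23 in shNT, shNR4A2 and shNR4A3 cells, and the kinase IKBKE 0.88, 0.89 and 1.13. The adaptor TBKBP1 fell by 0.68 on the log2 scale in shNT cells. No gene of these 7 was called in any comparison of the lines. Of the 15 sensors and adaptors, 2 were called higher and 1 lower in shNR4A2 cells in each state, 1 and 1 in shNR4A3 cells without LPS and 1 and 0 with LPS. TLR7 was higher in shNR4A2 cells in both states (1.59 and 0.91) and in shNR4A3 cells without LPS (1.79, where TRAF3 had -0.64). Against the 13, 4 and 6 counts of shNT control cells, TLR7 passed the count filter only with the LPS or knockdown libraries, where it was higher. TLR8, also an endosomal RNA sensor, was higher in shNR4A2 cells without LPS (1.71, adjusted p = 0.0156) and in both knockdown lines with LPS (1.68 and 1.21), and the adaptor TMEM173 (STING) was lower in shNR4A2 cells in both states (-0.69 and -0.92).

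Interferon transcripts themselves were scarce. IFNB1, the type I interferon that IRF3 induces early, had 0 counts in the shNT control libraries and 10, 19 and 15 with LPS, 1, 0 and 0 against 18, 13 and 20 in shNR4A2 cells, and 0 in each against 16, 17 and 12 in shNR4A3 cells. Its level with LPS was 2.94 ± 0.985, 3.67 ± 0.763 and 3.4 ± 1.04 TPM in the lines in turn, ranges that overlapped, and neither knockdown line was called against shNT. IFNA1, IFNA2 and IFNE had 0 counts in all 18 libraries. Of 10 tested receptor and signalling genes, 2, 1 and 4 were called higher with LPS in shNT, shNR4A2 and shNR4A3 cells, and 0, 0 and 1 lower. IFNGR2, a subunit of the interferon-gamma receptor, had 1.46, 1.77 and 1.75, and the gene called lower was the other subunit, IFNGR1 (-0.42, adjusted p = 0.00494). IFNAR2, a subunit of the type I interferon receptor, was called higher in all 4 knockdown comparisons, at 0.52 and 0.53 in shNR4A2 and 0.43 and 0.45 in shNR4A3 cells without and with LPS.

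Among 12 partners and coactivators, 5, 4 and 5 were called higher and 2, 2 and 1 lower with LPS in the 3 lines. The higher ones were led by NFKB1 (3.20 in shNT cells), JUN (3.07) and JUNB (2.60), and the lower ones were BATF, a partner of IRF4 and IRF8 in all 3 lines (-0.75 in shNT and -0.85 in shNR4A2 cells), and its relative BATF2 in shNT and shNR4A2 cells (-1.26 and -1.18). In shNR4A3 against shNT cells 1 of the 12 was called higher without LPS, SPI1 (0.37, adjusted p = 0.0411), and 2 with LPS, SPI1 (0.55, adjusted p = 0.0297) and JUNB (0.41, adjusted p = 0.0164), and no partner was called in shNR4A2 against shNT cells. Of 13 corepressors and negative regulators, 3 were called higher and 5, 4 and 5 lower with LPS in the 3 lines. SOCS3, a feedback inhibitor of cytokine receptors, had 5.36 in shNT cells, the repressors BCL6 and PRDM1 had 3.65 and 1.45, and SOCS1 had -2.00. In the knockdown comparisons BCL6 was the one gene of this list called, at 0.88 in shNR4A2 control cells and 0.80 in shNR4A3 cells with LPS.

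Of the known targets of ISGF3 and IRF3, 11 of 33 tested were called higher and 1 lower in shNR4A3 cells without LPS, with a median log2 fold change of 0.36 beside 0 for all genes. With LPS 19 of 34 were called higher and 1 lower, with a median of 0.67 beside -0.01. IFI27, an interferon-inducible gene, stood out, with 26.1, 28.2 and 23.2 TPM in shNR4A3 control cells against 6.06, 5.17 and 5.92 in shNT control cells (2.22, SE 0.127, adjusted p = 3.5e-07), and the groups did not overlap. With LPS it had 2.11, and IFIT2, IFIT3 and IFI44, antiviral effectors or relatives of them, had 1.27, 1.24 and 1.23. IFIT3 was at 86.6, 61.2 and 80.9 TPM in shNR4A3 against 33.9, 32 and 35.2 in shNT cells. The lower gene in both states was the chemokine CCL5, at -0.78 without LPS.

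In shNR4A2 cells 2 of 32 targets were called higher without LPS and 3 of 34 with LPS, with medians of 0.14 and 0.29. The counts of every list are from the fit without a replicate block. In shNR4A2 cells the block raised the share of all genes called higher to 12.1% without and 15.2% with LPS. It also raised the number in shNR4A3 cells, from 599 to 1239 of 15322 genes without and from 622 to 1921 of 15578 with LPS. List counts with the block are not given here, so the contrast of these counts between the lines holds for the unblocked fit only. IFI35 and CMPK2 were called in both states (0.49 and 0.43 without, 0.52 and 0.49 with LPS), and EPSTI1 with LPS (0.86). Set against shNR4A3 cells directly, IFI27 was lower in shNR4A2 cells in both states (-1.90 each), IFI6 without LPS (-1.21) and XAF1 with LPS (-0.71), and CCL5 was higher in both states (0.89 and 0.75), while the other targets tested were not called. With LPS itself 10 of 34 targets were called higher and 3 lower in shNT cells, 7 and 0 in shNR4A2 and 19 and 0 in shNR4A3 cells. CXCL10, a chemokine, rose from 7, 8 and 11 counts to 1725, 1833 and 4057 in shNT cells (8.23), and OASL and IFIT2 rose by 1.53 and 1.19. CXCL10 passed the count filter there only with its LPS libraries.

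Targets of IRF1 were higher in both knockdown lines in part. In shNR4A2 cells 5 of 17 were called higher without LPS and 5 of 20 with LPS, none lower, with medians of 0.35 and 0.41. GBP2, a guanylate-binding protein of antimicrobial defence, was at 5.57, 6.53 and 6.29 TPM in shNR4A2 control cells against 2.6, 2.06 and 2.24 in shNT control cells (1.41, SE 0.163, adjusted p = 0.000516) and had 1.33 with LPS. The immunoproteasome subunit PSMB9 had 0.56 and 0.51, and the death ligand TNFSF10 1.06 without LPS. In shNR4A3 cells 2 of 17 were called higher and 1 lower without LPS (TNFSF10 and CASP1 at 1.01 and 0.43, GBP5 at -0.70) and 5 of 20 higher with LPS, led by GBP1 (1.18) and GBP2 (1.07), with medians of 0.15 and 0.31. With LPS, 9 of 20 in shNT and 10 of 20 in each knockdown line were called higher and 2, 1 and 2 lower. GBP2 had 3.49, 3.41 and 3.95 there in the 3 lines, while TNFSF10 was called lower in each. Control libraries alone gave 17 tested genes of this list, so part of the 20 passed the count filter only with LPS libraries.

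Targets of IRF8 were called higher in both knockdown lines as well, 4 of 10 without LPS and 4 of 11 with LPS in shNR4A3 cells and 3 and 2 in shNR4A2 cells, none lower. The medians were 0.63 and 0.31 in shNR4A3 and 0.40 and 0.45 in shNR4A2 cells. The protease inhibitor CST3 was called in all 4 comparisons, at 0.63 and 0.65 in shNR4A2 and 0.58 and 0.51 in shNR4A3 cells without and with LPS. CYBB, which makes superoxide in phagocytes, was called in shNR4A3 cells (1.00 without and 1.45 with LPS), where its TPM with LPS was 205, 95.5 and 134 against 74.2, 45.2 and 47.6 in shNT cells. KLF4, a monocyte transcription factor, was called in both lines without LPS (0.87 and 0.92). With LPS itself 2, 2 and 3 of 11 were called higher in the 3 lines, beside 11.6%, 9.23% and 13.1% of all genes. In turn 1, 2 and 2 were called lower, beside 13.3%, 10.1% and 15.0%. IL12B, a subunit of interleukin-12 that is also on the IRF1 list, had 8.91 in shNT cells. Control libraries alone gave 10 tested genes of this list, so part of the 11 passed the count filter only with LPS libraries. Monocytic markers, given above, were called higher in the same comparisons (5 and 4 of 12 in shNR4A2 and 6 and 5 in shNR4A3 cells), and their part in these values was not tested.

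**Figure D4:**
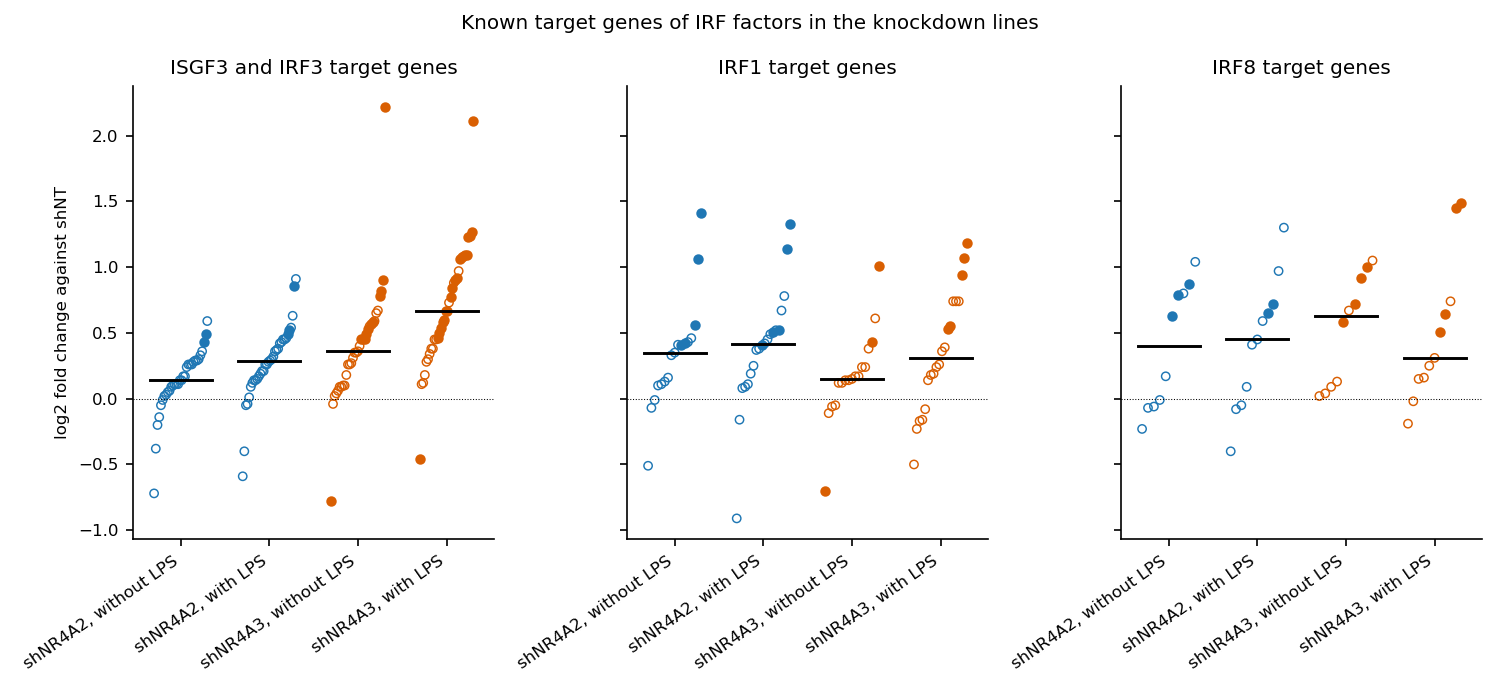
Log2 fold change against shNT (vertical axis) of each tested target gene of ISGF3 and IRF3, of IRF1 and of IRF8 in the 4 knockdown comparisons (horizontal axis). Filled points passed an adjusted p of 0.05 and black bars are medians. In the first panel 11 and 19 genes are called higher in shNR4A3 cells, against 2 and 3 in shNR4A2 cells, by the fit without a replicate block.

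The pattern of each member over the 18 libraries was compared with that of 14784 genes with a mean of at least 1 TPM (14785 for IRF4), by Pearson's r of log2 CPM. The libraries share lines, LPS state and sequencing depth, so r is a description. IRF5 was most like RARA, the retinoic acid receptor alpha (r = 0.988), FGD3 (0.986) and OGFR (0.981). RARA had 45.7 TPM in shNT control cells and 10.5 with LPS, a fall of the same direction as that of IRF5. IRF7 was most like the interferon-stimulated genes IFIT3 (0.969) and ISG15 (0.968), then ATP6AP1 (0.941), and IRF9 was most like AL445490.1 (0.942), U62317.2 (0.930) and IFIT3 (0.928). IRF8 was most like PLB1 (0.939), GLB1 (0.929) and FLII (0.910), and PLB1 went from 13.6 TPM in shNT to 22 TPM in shNR4A3 control cells. IRF4 was most like HES4 (0.948), DDIT4L (0.933) and PPP4R1L (0.932), IRF3 like BTBD2 (0.960) and HDGFL2 (0.918), IRF1 like LRRC8A (0.944), SH2B3 (0.922) and AC005042.1 (0.920), and IRF2 like AC012615.1 (0.914), PIF1 (0.914) and PANK1 (0.913).

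Among the members, IRF7 and IRF9 had the highest r (0.87), then IRF2 and IRF5 (0.84), the pair lower with LPS. IRF1 had 0.79 with IRF7 and 0.78 with IRF9. The lowest r were those of IRF5 with IRF4 (-0.80), IRF7 (-0.77) and IRF9 (-0.74). IRF8 followed none of the LPS-responsive members closely, with 0.53 for IRF1, 0.44 for IRF7, 0.10 for IRF5 and -0.01 for IRF4.

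**Figure D5:**
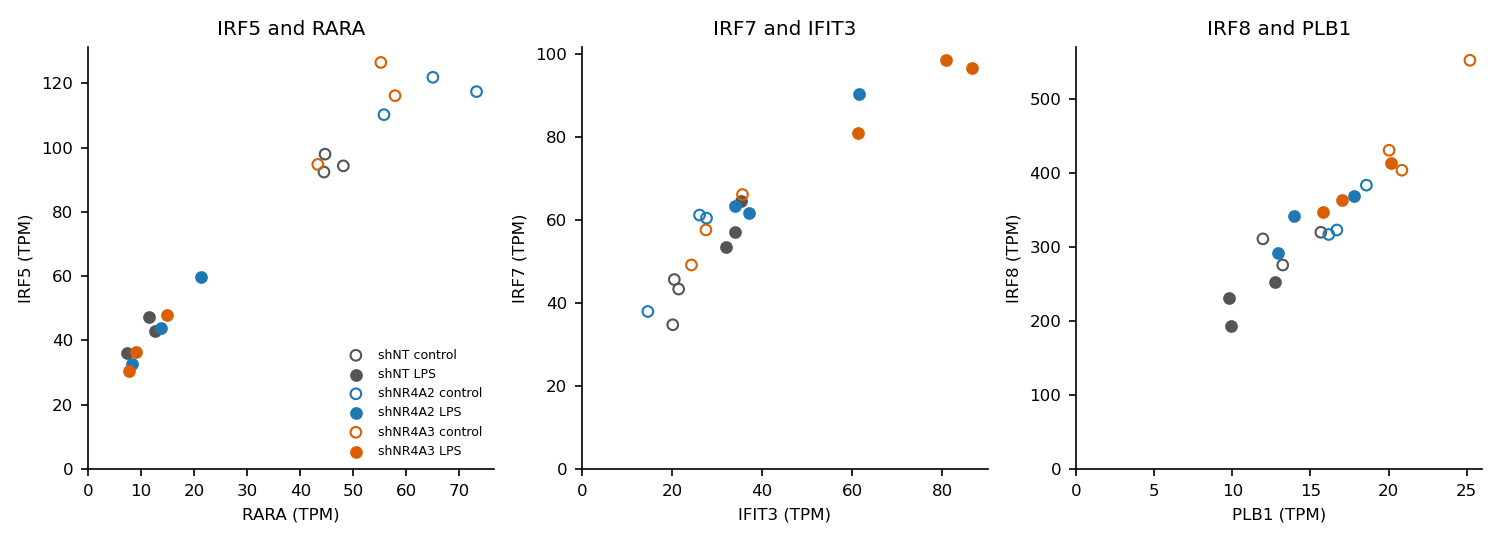
TPM of IRF5, IRF7 and IRF8 (vertical axes) against that of the gene most like each, RARA, IFIT3 and PLB1 (horizontal axes), in the 18 libraries. Open circles are control and filled circles LPS libraries of shNT (grey), shNR4A2 (blue) and shNR4A3 (orange) cells. IRF5 and RARA part by LPS. By group mean, IRF7 and IFIT3 are highest in shNR4A3 cells with LPS, and IRF8 and PLB1 are highest in shNR4A3 control cells, though single libraries of other groups overlap these.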

How the data were processed

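Polyadenylated RNA of 18 THP-1 libraries was sequenced from both ends. According to the submitters' processing notes the authors used Trimmomatic 0.36, STAR 2.5.2b, featureCounts of Subread 1.5.2 and GRCh38, and deposited whole-number counts per Ensembl gene, without normalization. The annotation release, strand setting and treatment of reads on overlapping genes are not given in the sources used here. Symbols came from GENCODE 29 (56898 of 57500 genes). Counts were tested with edgeR 4.0.16 under R 4.3.3 (filterByExpr, TMM, quasi-likelihood test, 2-sided), each comparison on its own libraries, with Benjamini-Hochberg adjustment over all genes tested and calls at an adjusted p under 0.05. The fit was checked on simulated data. For 3 libraries against 3 no exact permutation p is below 0.1, so none is printed. The study describes the libraries as independent experiments, which the labels do not state. Members, gene lists and tests were chosen with earlier results of these data known. Text names all IRF genes, the overlapping genes, the NR4A genes, at most 4 called genes per list and comparison with the largest absolute change, list genes without counts, and the 3 genes with the highest r for each member. A few genes that this rule names are not reported here. Marker genes and the per-library examples were named beyond that rule. Alternatives were DESeq2 1.42.0, its size factors (RLE), no filter on low counts, a replicate block, all 18 libraries in 1 fit, each library left out, other lengths for TPM and Spearman's rho. Replicate numbers were taken to pair libraries where the deviations of all 3 same-numbered pairs correlated above 0.1. They did except for LPS in shNT cells (lowest r 0.01), shNR4A3 against shNT without LPS (0.08) and the interactions with shNT (0.01 each).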

Additional observations from a re-analysis of the deposited data

How the results depend on the processing

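All 24 calls of an IRF gene kept their direction in all 264 values from the alternative fits (1 for each call and setting), and 231 of these values also kept the call. Of the 33 that lost it, 27 came from fits with a library left out, and DESeq2, no filter on low counts and all 18 libraries in 1 fit lost 2 calls each. Size factors by RLE and the replicate block lost none. For members not called in the main fit, 63 of 902 such values changed sign. With 1 library left out, the LPS change of IRF8 in shNR4A3 cells ranged from -0.14 to 0.04 (the latter without shNR4A3 control replicate 2), IRF9 in shNR4A2 against shNT cells from -0.01 to 0.12 without LPS and from -0.31 to 0.09 with LPS (0.06 without shNR4A2 LPS replicate 2), and IRF5 with LPS from -0.03 to 0.34 in shNR4A2 and from -0.23 to 0.05 in shNR4A3 cells.

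The number of IRF genes called in shNR4A2 against shNT cells without LPS was 0 and became 3 with the replicate block. With LPS it was 2 and became 1 without a filter, 1 with all 18 libraries in 1 fit and 1 with any library left out. In shNR4A3 against shNT cells without LPS it was 2 and became 4 with the block (IRF1 and IRF5 were added, though the numbers did not pair these libraries), 1 with all 18 libraries and 1 to 2 with a library left out. With LPS it was 4 and ranged from 2 to 4 with a library left out. Between the knockdown lines without LPS it was 0 and became 1 by DESeq2, without a filter, with the block or with all 18 libraries, and 0 to 1 with a library left out. With LPS it was 0 and became 1 without a filter, 6 with the block and 1 with all 18 libraries, and 0 to 1 with a library left out. The block also called IRF8 lower with LPS in shNT cells (adjusted p = 0.0325), where the numbers did not pair, and beyond the values printed above it changed no other call of an IRF gene.

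The number of all genes called moved by more than 1.5 times with the block from 1019 to 3733 and from 1085 to 4385 in shNR4A2 against shNT cells without and with LPS, from 1108 to 2267 and from 1005 to 3401 in shNR4A3 cells, from 480 to 1800 and from 362 to 3666 between the knockdown lines, and from 3050 to 4751 for LPS in shNR4A2 cells (4601 with all 18 libraries). Without a filter it was 1611, 1843, 1839, 838 and 1102 for shNR4A2 without and with LPS, shNR4A3 with LPS and the knockdown lines without and with LPS. All 18 libraries gave 1691 for shNR4A2 with LPS and 1032 between the knockdown lines with LPS, where DESeq2 gave 700. For the interactions the block gave 8, 22 and 0 genes and no filter 29, 138 and 29. With 1 library left out it ranged from 517 (without shNT control replicate 3) to 1128 and from 342 (without shNT LPS replicate 2) to 1477 for shNR4A2 against shNT without and with LPS, from 649 (without shNT control replicate 3) to 975 and from 383 (without shNT LPS replicate 2) to 1693 (without shNR4A3 LPS replicate 2) for shNR4A3, and from 249 (without shNR4A3 control replicate 1) to 470 and from 94 (without shNR4A3 LPS replicate 1) to 217 between the knockdown lines. The cause was not tested. IRF4, with 1 to 41 counts per library, and IRF9, with 76 to 182, carry the least depth. Spearman's rho kept all 3 genes named as most like IRF1 and 1 or 2 of the 3 for the other members.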
